A study of Sus scrofa with 10 samples.

Results

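The 100 steadiest well-expressed mRNAs of pig blood were 100 of the 12354 mRNAs measured from birth to 2 years of age. They were selected on the expression values of all 10 libraries. Each library was first scaled by a median-of-ratios factor, that is the median, over the 11527 mRNAs above 0 in every library, of an mRNA's level relative to its own geometric mean. Among the 1517 mRNAs with a mean of 10 to 5000 after this scaling, the 100 with the lowest coefficient of variation (CV, the SD over the 10 libraries divided by the mean) were taken. Every level and every difference between ages given for them is therefore a description, and no test is drawn from it. Of the 100, 97 had a gene symbol.

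Whole blood was taken from 10 healthy female Qingyu pigs, 2 at each age. D0 stands for the day of birth, D7 for 7 days of age, D28 for 28 days, D180 for 180 days and Y2 for 2 years, and each library came from a different pig, so no pig was followed over time. The labels list no treatment and no engineered allele, and age is the only difference between groups that they give. The suckling period comprised D0, D7 and D28, with 6 libraries, and the late period D180 and Y2, with 4. The unit is FPKM, the sequenced fragments of a transcript relative to its length and to the mapped fragments of its library. FPKM after division by the factor is called scaled FPKM.

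Genes that every cell uses are often called housekeeping genes. They include the factors that splice and export messenger RNA, start its translation and remove it, the enzymes that keep chromatin in order, the proteins that shape actin filaments and move vesicles, and the parts of mitochondria. Such genes are the usual reference when transcript levels are compared between samples. Whole blood is a hard case for this use, because reticulocytes, the young red cells, hold very large amounts of a few globin and haem-synthesis RNAs, and because the mix of red cells, platelets and white cells changes as an animal grows. In such bulk samples, fewer cells of a type and less RNA per cell cannot be told apart.

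The libraries differed strongly in composition. The 10 most abundant mRNAs took 68.1% to 90.7% of all mRNA FPKM in a library, with the lowest shares in both D180 libraries. The scaling factors were 0.437 and 0.455 in the D0 libraries, 0.501 and 0.539 at D7, then 1.00 and 0.971 at D28, then 2.87 and 3.03 at D180 and last 1.60 and 1.59 at Y2, so that the highest was 6.93 times the lowest. The mRNAs measured had been kept for exceeding 0.5 FPKM in at least 1 library, and 22 of 29 listed erythroid markers were among them. Their summed scaled FPKM had a mean of 1083050 at D0 and 42629 at D180, and the highest library was 29.4 times the lowest. Across other blood cells the same ratio was 1.81 for T cell markers, 2.82 for B cell, 3.13 for monocyte, 5.38 for NK and cytotoxic cell, 6.27 for platelet and 25.8 for neutrophil markers. All these marker ratios are of scaled FPKM, so their sizes and their order depend on the factors. The marker lists were not summarised on deposited FPKM. None of the 100 steady mRNAs was on any of these 7 marker lists, but few markers were of the eligible level, namely 17 erythroid, 8 T cell, 5 platelet, 3 neutrophil, 2 monocyte, 2 NK and cytotoxic cell and 0 B cell markers, and the part of cell composition in the results was not tested.

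On the deposited scale the 100 mRNAs were not steady at all. Their summed FPKM was 868 and 912 at D0, 1040.1 and 1105 at D7, 1999.8 and 2129.9 at D28, 5986 and 6097 at D180, and 3316 and 3324 at Y2. Both D180 libraries were thus the highest and both D0 libraries the lowest. For SMARCA5, the mRNA with the lowest CV after scaling, the deposited FPKM was 5.28 and 5.88 at D0, 6.495 and 6.52 at D7, 11.8 and 12.7 at D28, 34.5 and 37.5 at D180, and 20.2 and 19.9 at Y2. All 100 mRNAs were higher in each of the 4 late libraries than in each of the 6 suckling libraries, which held for 61.1% of the 1517 mRNAs of this level. The mean at D180 was 5.03 to 8.28 times that at D0, with a median of 6.48. Among mRNAs with a D0 mean above 0, the median was 6.81 for all 12102 and 4.18 for the 1516 of this level. In 92 of the 100 the age means stood in the rising order D0, D7, D28, Y2, D180, against 35.7% of the 1517. The choice itself largely fixed these patterns, since an mRNA steady on scaled FPKM follows the factors on deposited FPKM. The factors were 1.59 to 3.03 in the late libraries and 0.437 to 1.00 in the suckling libraries. The shares of the 1517 are therefore background only.

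After scaling, the same summed level was 1986 and 2004 at D0, 2074 and 2049.5 at D7, 1997 and 2193 at D28, 2085 and 2011 at D180, and 2074 and 2092 at Y2. The highest library, pig 2 at D28, was 1.10 times the lowest, pig 1 at D0, and the CV over libraries was 3.02%, against 74.4% for the summed deposited FPKM. The CV of an individual mRNA ran from 3.68% to 11.8% with a median of 8.95%, and 66 of the 100 were under 10%. On deposited FPKM the CV of these mRNAs ran from 64.8% to 86.2%. The median CV was 39.7% for the other 1417 mRNAs of this level and 30.4% for all 12354 mRNAs, both after scaling. The choice depended on the scaling, as none of the 100 was among the 100 lowest CVs on deposited FPKM (0), or after the 10 most abundant mRNAs were removed and the rest rescaled (0). Upper-quartile scaling kept 56, with a median CV of 10.9% over the 100, and factors from mRNAs of at least 1 FPKM kept 97, with 9.10%. As shares of all mRNA FPKM, the 100 together held 0.0825% of a library at the lowest (pig 1 at D0) and 0.825% at the highest (pig 2 at D180).

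**Figure D1:**
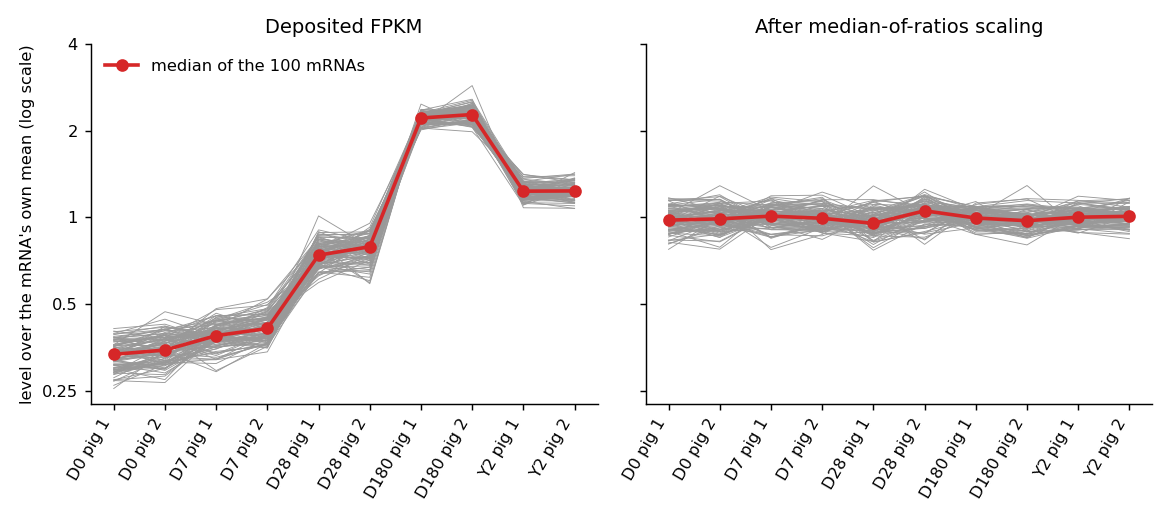
Level of each of the 100 mRNAs (grey lines) and their median (red) in the 10 libraries, as a ratio to the mRNA's own mean on a log axis, for deposited FPKM (left) and scaled FPKM (right); lines join different pigs. The deposited values were highest in both D180 libraries, and the medians of the scaled values stayed between 0.954 and 1.05.

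SMARCA5, the ATPase of the ISWI complexes that slide nucleosomes, had the lowest CV at 3.68%. Its scaled FPKM was 12.1 and 12.9 at D0, 12.95 and 12.1 at D7, 11.7 and 13.1 at D28, 12.03 and 12.4 at D180, and 12.6 and 12.5 at Y2. Its 5 age means differed by a ratio of 1.03, and only 8.85% of its sum of squares lay between ages, so its values spread mainly between the 2 pigs of an age. The gene spans chromosome 8, 84184572 to 84224943 on Sscrofa11.1.

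CNOT1 is the scaffold of the CCR4-NOT complex, which shortens the poly(A) tails of mRNAs before they are degraded. It had a CV of 3.99% and scaled FPKM of 12.7 and 11.9 at D0, 12.1 and 11.9 at D7, 12.1 and 11.8 at D28, 12.9 and 12.98 at D180, and 11.6 and 12.3 at Y2. Both D180 libraries were the highest, and their values overlapped with no other library, although the highest library was only 1.12 times the lowest. The gene lies on chromosome 6, 20271593 to 20372300.

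GNB1 encodes a beta subunit of heterotrimeric G proteins. Its scaled FPKM was 18.6 and 18.1 at D0, 18.8 and 19.2 at D7, 17.5 and 17.5 at D28, 17.6 and 17.2 at D180, and 18.8 and 19.1 at Y2, with a CV of 4.11%. Pigs of the same age were closer here than for most of the 100: 93.6% of the sum of squares lay between ages, and the CV within ages was 1.40%. The D7 and Y2 libraries were the highest, and all 4 libraries of D28 and D180 were below all others. The gene lies on chromosome 6, 63867155 to 63957514.

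PDS5A, which regulates the cohesin rings around chromosomes, measured 10.5 and 10.7 at D0, 10.6 and 10.5 at D7, 9.66 and 11.2 at D28, 11.11 and 10.2 at D180, and 10.1 and 10.4 at Y2 scaled FPKM. TRA2B, a splicing regulator that binds exonic enhancers, measured 12.9 and 12.98 at D0, 11.4 and 11.5 at D7, 12.1 and 11.998 at D28, 11.96 and 12.6 at D180, and 11.4 and 12.3 at Y2. For TRA2B both D0 libraries lay above all others, while PDS5A had its highest and lowest values in the 2 pigs of one age, D28. TRA2B lies on chromosome 13, 123760008 to 123780919, and PDS5A had no match by symbol in RefSeq.

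SYNCRIP and DHX9 encode RNA-binding proteins of the heterogeneous nuclear ribonucleoprotein and RNA helicase families. SYNCRIP measured 11.06 and 10.8 at D0, 11.3 and 10.2 at D7, 10.7 and 12.05 at D28, 11.15 and 11.8 at D180, and 11.4 and 11.7 at Y2 scaled FPKM. DHX9 measured 22.1 and 22.8 at D0, 22.0 and 22.2 at D7, 20.9 and 25.2 at D28, 24.3 and 24.6 at D180, and 23.2 and 23.3 at Y2. Within each of these series the lowest and the highest age means differed by ratios of 1.071 and 1.11, and for DHX9 the 2 pigs at D28 held the lowest and the highest value.

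PARK7 encodes a small protein that responds to oxidative stress. Its scaled FPKM was 10.4 and 9.86 at D0, 10.4 and 9.48 at D7, 9.57 and 11.2 at D28, 10.9 and 10.1 at D180, and 9.999 and 10.7 at Y2. STK17B, a serine/threonine kinase of the death-associated family, stood at 55.2 and 57.0 at D0, 53.9 and 54.6 at D7, 50.2 and 55.4 at D28, 55.2 and 53.6 at D180, and 48.2 and 48.2 at Y2. ARPC2, a subunit of the Arp2/3 complex that starts branched actin filaments, stood at 60.9 and 61.6 at D0, 70.0 and 67.4 at D7, 62.6 and 65.8 at D28, 61.1 and 57.9 at D180, and 59.9 and 61.1 at Y2. In ARPC2 both D7 libraries were above all others, and in STK17B both Y2 libraries were below all others, whereas PARK7 showed no age apart from the rest.

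**Figure D2:**
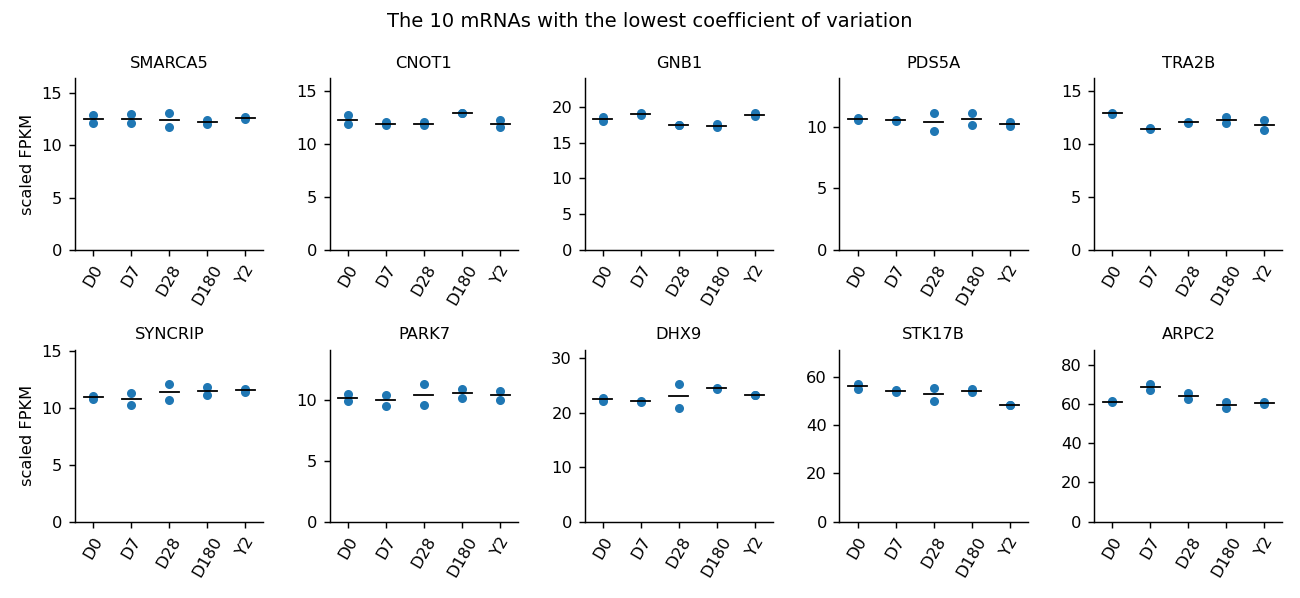
Scaled FPKM of the 10 mRNAs with the lowest CV, one panel each, by age; points are the 2 pigs of an age, bars their mean, and each axis starts at 0. The age means of SMARCA5 differ by a ratio of 1.03, and ARPC2 reads from 57.9 to 70.0.

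Most of the 100 stood near the lower limit of the level range. Their scaled mean ran from 10.03 to 251 with a median of 13.4, and 53 of them were under 15, against 34.9% of all 1517 mRNAs of this level. Only 10 were over 30, against 32.8% of the 1517. The lowest means belonged to DYRK1A (a dual-specificity kinase, 10.03 ± 0.6255 SD, n = 10 libraries), TM9SF2 (a multi-pass membrane protein of the Golgi, 10.1 ± 0.732), HSPA9 (the Hsp70 chaperone of mitochondria, 10.2 ± 0.639), CSNK1G2 (a casein kinase, 10.2 ± 0.635) and PARK7 (10.3 ± 0.569). FPKM are divided by transcript length, so these levels can be compared between genes.

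PTMA, the gene of prothymosin alpha, a small acidic nuclear protein, was by far the most abundant, at 210 and 208 at D0, 257 and 239 at D7, 257 and 299 at D28, 274 and 248 at D180, and 264 and 260 at Y2 scaled FPKM. Both D0 libraries were below all others. An mRNA with no symbol, ENSSSCG00000006556, followed with a mean of 68.2, then ARPC2 with 62.8, STK17B with 53.1, NCL (nucleolin, of the nucleolus) with 43.7 and CDC42 (a small GTPase that sets cell polarity) with 37.1. NCL was spread mainly between pigs rather than ages, from 38.2 to 54.7, the lowest at D0 and the highest at D28, with 30.2% of its sum of squares between ages. PTMA, NPM1 and HNRNPA1 have processed pseudogenes in mammalian genomes, and how reads shared with such copies were assigned is not given in the sources used here.

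**Figure D3:**
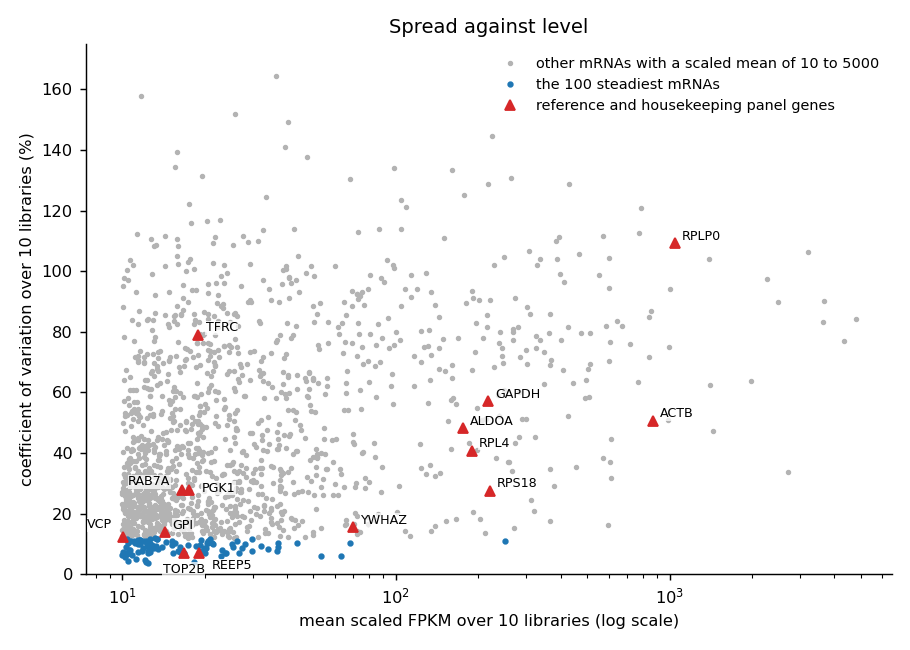
CV over the 10 libraries against the mean scaled FPKM (log axis) for the 1517 mRNAs with a mean of 10 to 5000: the 100 steadiest in blue, the others in grey, and reference genes as red triangles. The blue points end at a CV of 11.8%, and 53 of them lie under a mean of 15.

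The limit cut through a continuous distribution. Just inside were PPP4R3B (a regulatory subunit of protein phosphatase 4, CV 11.7%, scaled FPKM 11.8 to 17.2) and CCDC69 (11.8%, 11.7 to 17.0). The nearest outside were ITSN2 (an endocytic adaptor, 11.8%, 10.1 to 14.0), ARHGAP30 (a GTPase-activating protein, 11.97%, 21.9 to 30.9) and CLINT1 (a clathrin adaptor, 12.001%, 9.01 to 13.6). Single pigs held the highest value of CCDC69 (pig 2 of D180) and of PPP4R3B (pig 2 of D0). By contrast, both D28 libraries were the highest for ARHGAP30 and the lowest for ITSN2.

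The 97 mRNAs with a symbol were grouped by what their products are known to do, an assignment made after the members were known. RNA processing was the largest group with 18. It held the splicing regulators TRA2B, SRSF3, SRSF10, SON and MBNL1, the ribonucleoproteins SYNCRIP, HNRNPU, HNRNPA1, HNRNPL, EWSR1 and KHDRBS1, the helicases DHX9 and DDX21, and ILF2, NCL, WTAP, RTRAF and ERH. CVs in the group ran from 4.75% to 11.3% with a median of 8.96%, and scaled means from 10.3 to 43.7. SRSF3, which promotes exon inclusion and mRNA export, measured 10.98 and 9.22 at D0, 9.54 and 9.89 at D7, 10.8 and 11.4 at D28, 11.09 and 10.3 at D180, and 10.3 and 9.99 at Y2. HNRNPU, a nuclear RNA-binding scaffold, measured 29.2 and 29.7 at D0, 26.1 and 27.0 at D7, 27.9 and 32.7 at D28, 31.0 and 32.0 at D180, and 32.4 and 31.0 at Y2. SRSF3 had its lowest value at D0 and its highest at D28, while HNRNPU was lowest in both D7 libraries. ERH had age means from 10.1 ± 0.171 at D180 to 13.2 ± 0.0465 at D0, and WTAP, a partner of the m6A RNA methylation enzyme, from 13.1 ± 0.776 at D180 to 16.9 ± 0.720 at D7 (mean ± SD, n = 2 pigs).

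Translation and mRNA decay gave 10 mRNAs. These were the initiation factors EIF4A1, EIF4B and EIF4H, the decay and repression factors CNOT1, DDX6 and LSM14A, the helicase DDX3X, and the RNA-binding proteins CAPRIN1, SERBP1 and NUFIP2. EIF4H, which stimulates the helicase EIF4A, measured 21.7 and 20.2 at D0, 23.0 and 21.4 at D7, 23.5 and 26.5 at D28, 24.6 and 22.7 at D180, and 24.4 and 24.2 at Y2, with both D0 libraries under the D28 ones. EIF4B, another helper of EIF4A, had 22.2 ± 0.0771 at D0, 17.4 ± 0.455 at D7, then 17.8 ± 1.19 at D28, then 18.8 ± 0.315 at D180 and last 19.7 ± 0.0677 at Y2, and both D0 libraries were above all others. DDX6, which represses mRNAs in cytoplasmic granules, measured 26.4 and 26.3 at D0, 24.2 and 24.7 at D7, 20.9 and 23.8 at D28, 23.4 and 22.1 at D180, and 23.9 and 23.2 at Y2. The ratio of the late to the suckling mean in this group ran from 0.855 for SERBP1 to 1.23 for NUFIP2.

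Chromatin and nuclear proteins gave 11, namely SMARCA5, PDS5A, KPNA4, SMCHD1, NPM1, TOP2B, MORF4L1, RESF1, CGGBP1, PTMA and PSIP1. This group had the lowest median CV of the larger groups, 7.04%. KPNA4, an importin that carries proteins into the nucleus, had 10.9 ± 0.435 at D0, 11.4 ± 0.272 at D7, then 10.1 ± 1.02 at D28, then 10.02 ± 0.874 at D180 and last 10.5 ± 0.350 at Y2. NPM1, the nucleolar phosphoprotein nucleophosmin, measured 23.6 and 24.997 at D0, 24.3 and 24.0 at D7, 20.6 and 26.2 at D28, 24.8 and 24.5 at D180, and 22.1 and 22.2 at Y2. SMCHD1, which takes part in silencing the inactive X chromosome, measured 19.9 and 21.5 at D0, 20.6 and 21.4 at D7, 20.3 and 22.6 at D28, 19.5 and 18.7 at D180, and 18.8 and 18.3 at Y2. In SMCHD1 all 4 late libraries were below all 6 suckling libraries, with a ratio of 0.896, the one such member of this group.

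Kinases, phosphatases and other signalling proteins made 17. They included the kinases STK17A, STK17B, DYRK1A, CSNK1A1, CSNK1G2, GRK2 and WNK1, the phosphatase 4 subunits PPP4C and PPP4R3B, the adaptors GRB2, PIK3R1, YWHAB and MOB1A, the G protein subunit GNB1, the lipid receptor S1PR4 and the stress protein SESN3. GRB2, which links receptors to Ras, measured 14.4 and 12.98 at D0, 15.1 and 15.1 at D7, 13.9 and 13.4 at D28, 16.6 and 15.03 at D180, and 18.0 and 17.4 at Y2. PIK3R1, a regulatory subunit of PI3 kinase, measured 11.8 and 14.5 at D0, 12.2 and 10.8 at D7, 10.1 and 13.7 at D28, 12.7 and 11.2 at D180, and 12.7 and 12.4 at Y2. GRB2 was highest in both Y2 libraries, while PIK3R1 had the largest spread between pigs of an age among the 100, a CV within ages of 12.99%.

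Actin and small GTPase signalling contributed 13, namely ARPC2, ACTR2, ACTR3, GNA13, OSTF1, NCKAP1L, RIPOR2, HCLS1, GIT2, ROCK1, CDC42SE1, CDC42 and ADD3. ARPC2, ACTR2 and ACTR3 are 3 of the subunits of the Arp2/3 complex. ACTR3 measured 40.6 and 40.8 at D0, 38.0 and 37.9 at D7, 33.7 and 39.1 at D28, 34.2 and 32.4 at D180, and 36.7 and 35.9 at Y2, and ACTR2 19.9 and 19.0 at D0, 20.8 and 21.5 at D7, 19.5 and 20.5 at D28, 18.9 and 16.7 at D180, and 18.1 and 18.0 at Y2. All 3 had their lowest age mean at D180, and their highest was at D7 for ARPC2 and ACTR2 and at D0 for ACTR3. NCKAP1L and HCLS1 are expressed mainly in blood cells and their precursors, and their ratios of the late to the suckling mean were 1.10 and 1.11.

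Membrane, vesicle and secretion proteins numbered 11, among them TMEM131, REEP5, SSR2, TM9SF2, GDI2, EDEM1, CLTC, RNASEK, RAB37 and CD81. Mitochondria and metabolism gave 10, namely PARK7, HSPA9, SUCLG1, ME2, ATP5F1A, PDK1, PGAM1, SDHD, SLC25A3 and SLC38A2. ATP5F1A, the alpha subunit of ATP synthase, had 19.0 ± 0.447 at D0, 21.4 ± 0.449 at D7, then 21.5 ± 0.282 at D28, then 17.8 ± 0.671 at D180 and last 19.7 ± 0.0542 at Y2. SDHD, a membrane anchor of succinate dehydrogenase, had 11.2 ± 0.255 at D0, 12.2 ± 0.564 at D7, then 9.51 ± 0.867 at D28, then 9.70 ± 0.798 at D180 and last 11.14 ± 0.118 at Y2. CLTC, the clathrin heavy chain, had 12.9 ± 0.678 at D0, 10.995 ± 0.598 at D7, then 11.6 ± 0.483 at D28, then 9.83 ± 0.347 at D180 and last 10.5 ± 0.120 at Y2, and GDI2, which recycles Rab GTPases, had 14.7 ± 0.548 at D0, 18.9 ± 1.74 at D7, then 17.9 ± 0.998 at D28, then 17.5 ± 0.220 at D180 and last 18.0 ± 0.290 at Y2. CLTC was thus highest at D0, where GDI2 was lowest. Protein modification and breakdown gave USP9X, USP34, SUMO2, ERAP1 and CSTB, and HECA and CCDC69 were placed in no group. USP34, a deubiquitinase, measured 9.87 and 9.94 at D0, 8.93 and 10.1 at D7, 9.29 and 9.67 at D28, 11.4 and 11.98 at D180, and 11.7 and 11.7 at Y2, and the 4 late libraries all exceeded the 6 suckling ones.

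**Figure D4:**
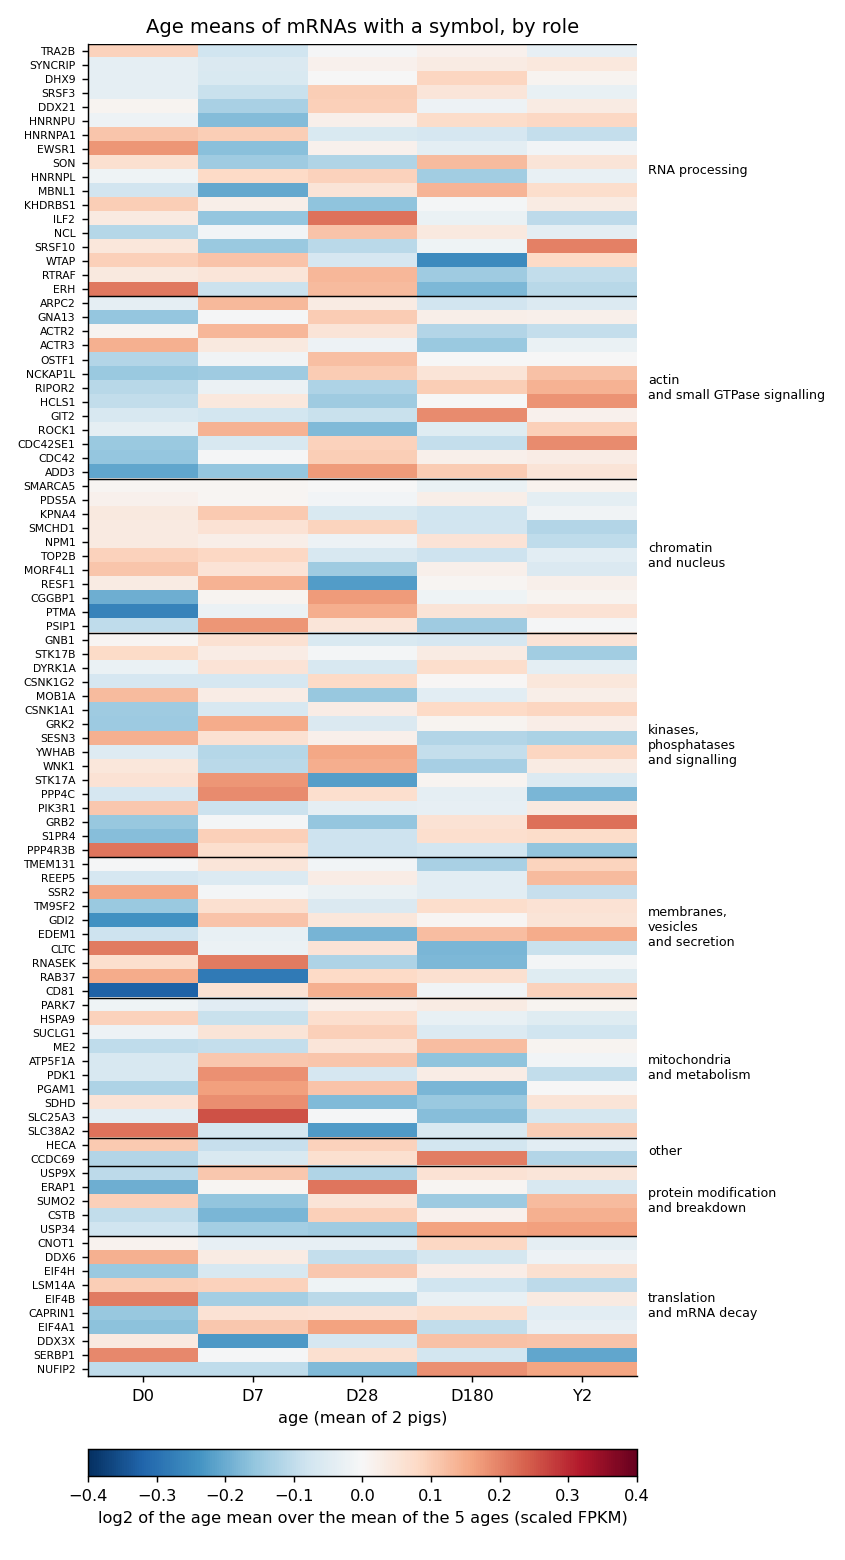
Age means (2 pigs each) of mRNAs with a symbol as log2 ratios to the mean of their 5 age means, in scaled FPKM, grouped by role; red is above and blue below that mean, and the colour scale ends at 0.4 either way. The largest ratio between 2 age means is 1.38, and in each group of 5 or more mRNAs every age holds values above and below the mean.

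No age stood out among the 100 after scaling. The highest age mean was at D0 for 24 mRNAs, at D7 for 21, then at D28 for 23, then at D180 for 15 and last at Y2 for 17, whereas among the 1517 mRNAs it was at D0 for 50.1%. The lowest was at D0 for 24, D7 for 22, D28 for 19, D180 for 19 and Y2 for 16, against 42.1% at D180 among the 1517. For a single mRNA the highest age mean was 1.03 to 1.38 times the lowest, with a median of 1.21. The late mean divided by the suckling mean ran from 0.850 to 1.23 with a median of 1.00. In 5 mRNAs (RIPOR2, EDEM1, DDX3X, USP34 and NUFIP2) each late library was above each suckling library, and in 3 (SMCHD1, ACTR2 and RTRAF) all were below, against 5.08% and 38.1% of the 1517.

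The largest ratios between age means belonged to membrane and transport proteins and to PTMA. CD81, a tetraspanin of lymphocytes and many other cells, measured 10.98 and 10.4 at D0, 13.8 and 14.1 at D7, 14.8 and 14.7 at D28, 13.7 and 12.8 at D180, and 14.1 and 14.4 at Y2, and both D0 libraries were below all others, at a ratio of 1.38. SLC38A2, an amino acid transporter, measured 24.0 and 24.8 at D0, 19.9 and 20.1 at D7, 17.3 and 18.6 at D28, 20.2 and 20.1 at D180, and 22.0 and 22.9 at Y2, with a ratio of 1.36 between D0 and D28. RAB37, a GTPase of secretory granules, measured 12.995 and 13.4 at D0, 9.20 and 10.4 at D7, 13.1 and 12.01 at D28, 12.6 and 12.3 at D180, and 11.3 and 11.7 at Y2, and both D7 libraries were the lowest. SLC25A3, the phosphate carrier of mitochondria, measured 26.3 and 24.96 at D0, 31.4 and 31.5 at D7, 26.3 and 26.3 at D28, 24.0 and 22.9 at D180, and 24.3 and 26.0 at Y2, and there D7 was the highest, at 1.34 times the D180 mean. The ratio for PTMA was 1.33 between D28 and D0.

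The spread of each mRNA was divided between ages and pigs of an age, with 4 of its 9 degrees of freedom between ages. The median share of the sum of squares between ages was 76.9% in the 100. Among all 1517 mRNAs the median was 97.9%. The median CV within ages, between 2 pigs of an age, was 5.51% for the 100 and 6.16% for the 1517. What set the 100 apart was the small distance between ages, which the choice itself fixed. Values at D28 showed the widest gap between 2 libraries, the median mRNA standing at 0.954 of its own mean in pig 1 and 1.05 in pig 2.

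The rows of each table were fitted with limma on log2(FPKM + 1), and the 100 were counted within those fits as a description. On scaled FPKM, 1 of the 100 had an adjusted p of at most 0.05 between the late and the suckling period, where 17.9% of all 12354 mRNAs did. With the 5 ages in the fit the count was 22, against 51.1% of all mRNAs, and after removal of the 10 most abundant mRNAs it was 100, against 77.1%. The 1 mRNA called between the 2 periods was NUFIP2, with a log2 difference of 0.27 ± 0.084 (SE), and no mRNA of the 100 had such a p when any 1 library was left out. At the steps between adjacent ages, 0 of the 100 reached an adjusted p of at most 0.05 together with a log2 difference of 1.5 or more in size. The choice fixed this count, since the largest ratio between 2 age means of a member was 1.38, and the shares of all mRNAs are given as background only. The matching shares of all mRNAs were 1.51% for D7 against D0, 2.29% for D28 against D7, 3.03% for D180 against D28 and 0.526% for Y2 against D180. At an unadjusted p under 0.05, limma gave 31, 27, 24 and 11 of the 100 at these steps, where 46.3%, 49.6%, 42.1% and 24% of all mRNAs had one. By adjusted p alone, with no limit on the difference, it gave 17, 19, 14 and 1, against 37.9%, 41.1%, 32.4% and 11.4% of all. Log2 differences at the steps ran from -0.40 to 0.37, with medians within 0.02 of 0.

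On deposited FPKM the same fits counted all 100 as higher in the late period, where 89.4% of all mRNAs were called in either direction. The log2 differences of the 100 ran from 1.47 to 1.98 with a median of 1.72, against a median of 1.11 over all mRNAs. These differences include the pseudocount of 1, which understates changes of low RNAs. As plain ratios of mean FPKM, late over suckling, the medians were nearly equal. They were 3.50 for the 100 and 3.49 for the 12322 mRNAs with a suckling mean above 0. Within the steps, 0 were called for D7 against D0 (0.898% of all mRNAs), 0 for D28 against D7 (2.4%), 51 as higher for D180 against D28 (18.7%) and 0 for Y2 against D180 (1.35%). The contrast for D180 against D28 depended on the pseudocount, as a pseudocount of 0.1 gave 63, against 48.6% of all mRNAs. At an unadjusted p under 0.05 the counts in limma were 53, 100, 100 and 100, against 37%, 73.5%, 94.1% and 87.6% of all mRNAs. By adjusted p alone they were 34, 100, 100 and 100, against 27.4%, 71.2%, 93.9% and 87.1%. The median log2 difference was 0.20, 0.83, 1.504 and -0.85 at the 4 steps. The adjacent steps share libraries, and the choice of the 100 used every one of these values.

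The choice was repeated in pigs of one number and read in the others, which are different animals of the same 5 ages. The 100 mRNAs with the lowest CV in the 5 libraries of pigs numbered 1 had a median CV of 8.54% there and of 10.04% in the 5 libraries of pigs numbered 2, where all 1556 mRNAs of this level had a median of 37.5%. Of these 100, 94 were among the steadiest 20% in pigs numbered 2. In the other direction the medians were 8.87% and 9.86%, beside 38.4% for 1487 mRNAs. Only 92 of that 100 were in the level range in pigs numbered 1, and 88 of the 92 were among the steadiest 20%. The median of 9.86% covers all 100. The 2 choices shared 60 mRNAs. No test was made, since both readings share the ages and come from the libraries that gave the main choice.

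Genes commonly used as references were compared on the same scale. TOP2B, a DNA topoisomerase, was the only one of 12 classic reference genes of this level among the 100, at 17.6 and 18.3 at D0, 18.2 and 17.5 at D7, 14.6 and 17.6 at D28, 16.0 and 15.9 at D180, and 16.3 and 16.5 at Y2 scaled FPKM and a CV of 7.04%, rank 23 of 1517. REEP5, an endoplasmic reticulum protein from a panel proposed for human RNA-seq, was the only one of 4 panel genes of this level, at 18.5 and 18.0 at D0, 17.4 and 19.4 at D7, 18.1 and 20.9 at D28, 18.4 and 18.7 at D180, and 21.2 and 20.5 at Y2 and 6.98%. YWHAZ, a 14-3-3 adaptor, came nearest of the remaining classic genes with a CV of 15.5%, rank 213, and its age means (± SD, n = 2 pigs) were 82.2 ± 3.76 at D0, 79.3 ± 8.12 at D7, then 65.7 ± 7.49 at D28, then 63.6 ± 5.17 at D180 and last 57.8 ± 1.34 at Y2, each lower than the one before. In the panel, VCP, an ATPase that extracts proteins for breakdown, had 12.1% (rank 106), GPI, a glycolytic enzyme, 13.8% (rank 150) and RAB7A, a GTPase of late endosomes, 27.6%.

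ACTB, the beta-actin gene to which the study normalised its qRT-PCR, had a scaled CV of 50.5%, rank 954 of 1517. Its age means were 885 ± 57.0 at D0, 1613 ± 8.81 at D7, then 802 ± 248 at D28, then 589 ± 244 at D180 and last 465 ± 134 at Y2, so that D7 was highest and Y2 lowest, and pigs of one age differed widely at D28 and D180. GAPDH, the glycolytic enzyme, had a CV of 57.0% and age means of 396 ± 5.48 at D0, 278 ± 8.89 at D7, then 231 ± 10.2 at D28, then 79.1 ± 4.46 at D180 and last 99.9 ± 0.958 at Y2. On deposited FPKM the CV was 58.5% for ACTB and 20.2% for GAPDH, against 64.8% to 86.2% for the 100 steady mRNAs. Their places therefore depend on the scale. TFRC, the transferrin receptor, which is also an erythroid marker, had 79.0% on scaled and 20.2% on deposited FPKM.

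Other classic genes included RPLP0 with a CV of 109%, ALDOA with 48.1%, RPL4 with 40.8%, PGK1 with 27.8% and RPS18 with 27.6%. On deposited FPKM these CVs were 52.4%, 67.7%, 51.0%, 59.6% and 61.1% in the same order. For RPLP0, a ribosomal protein, the age means were 3111 ± 78.6 at D0, 1103 ± 29.5 at D7, then 514 ± 20.4 at D28, then 176 ± 16.2 at D180 and last 313 ± 9.06 at Y2. It was highest at D0 and lowest at D180. Genes under the level range were not eligible, among them SDHA, a subunit of succinate dehydrogenase, with a CV of 6.53% at a mean of 4.96, and EMC7, of the endoplasmic reticulum membrane complex, with 6.90% at 3.11. VPS29 (11.7%), PPIB (13.7%), C1orf43 (16.2%), PSMB4 (21.4%), PSMB2 (21.8%), GUSB (25.5%), HPRT1 (33.7%) and CHMP2A (34.8%) were under it too. B2M, TBP, PPIA, RPL32, EEF1A1 and SNRPD3 were sought by symbol, but no mRNA carried these symbols, so they were not analysed here. Only 9735 of the 12354 mRNAs had a symbol, so this does not show that they are absent from blood.

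**Figure D5:**
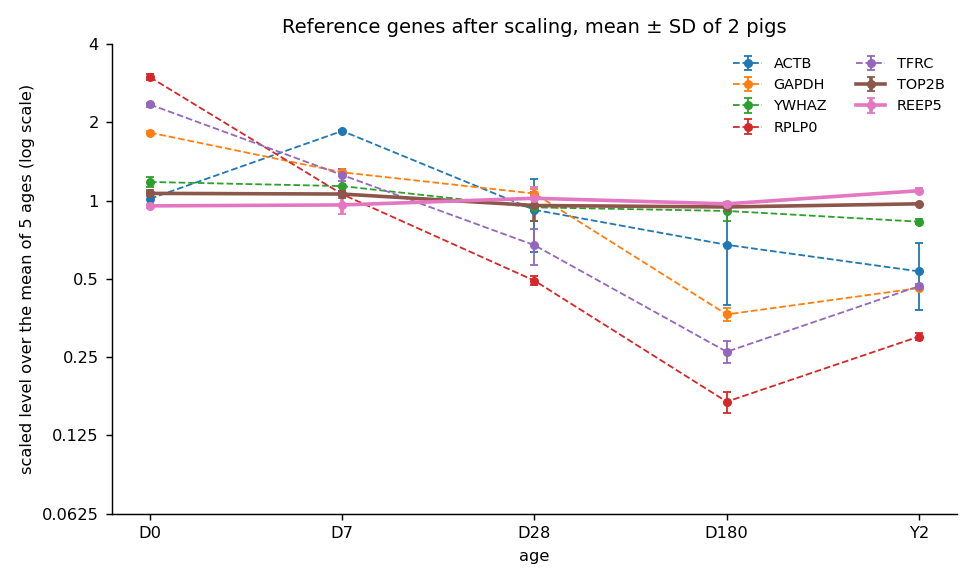
Scaled FPKM of 7 reference genes by age as a ratio to the mean of their 5 age means, on a log axis; points are means of 2 pigs, bars ± SD, thick lines TOP2B and REEP5, which are among the 100, and lines join ages of different pigs. TOP2B and REEP5 stay near 1, while RPLP0 had a mean of 3111 scaled FPKM at D0 and 176 at D180.

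Lists of genes by function were counted next, which had been drawn up with earlier results of these data known. Of all 1517 mRNAs of this level the 100 made 6.59%, so that short lists would hold few or none at that share. Of 43 splicing factors in the level range, 9 were among the 100 (TRA2B, DHX9, SRSF3 and HNRNPU with the lowest CVs, and HNRNPA1, SON, HNRNPL, MBNL1 and SRSF10), and the median CV of the list was 21.7%. From 20 translation factors 3 were members (EIF4H, EIF4B and EIF4A1, list median 29.5%), and 3 of 17 mRNA decay genes (CNOT1, DDX6 and LSM14A, 35.5%). Vesicle traffic genes gave 3 of 19 (GDI2 and CLTC among them), ubiquitin genes 2 of 32 (USP9X and USP34), oxidative phosphorylation genes 2 of 23 (ATP5F1A and SDHD), nuclear transport genes 1 of 8 (KPNA4) and chromatin regulators 1 of 22 (SMARCA5). The median of the chromatin list, 19.2%, was below that of all 1517 mRNAs, 36.0%. None of 45 ribosomal protein genes was a member, and their CVs ran from 12.5% to 125.3% with a median of 64.2%. Proteasome subunits, with 4 of this level, and RNA polymerase II, the general factors and Mediator, with 6, are too few to read their count of 0. The lists differ in size and level, and no test of them was made.

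The positions of the genes were taken from RefSeq on Sscrofa11.1, where 91 of the 100 matched by symbol. They lay on 19 chromosomes, most often 6 (11 genes), 13 (10), 2 (9), 3 and 12 (8 each), with 3 on X. The RefSeq span from first to last base had a median of 35748 bases, beside 25975 for 1097 matched mRNAs of this level and 29867 for 8938 matched mRNAs in all.

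Long noncoding RNAs (lncRNAs) of the same libraries did not enter the choice. Of 5946 lncRNAs, 15 overlapped the span of 13 of the 91 genes by at least 1 base. After division by the mRNA factors, these 15 had a median CV of 81.7%, beside 82.7% for all lncRNAs. Their levels were low, with a median of the mean FPKM of 0.452. A mean of at least 1 FPKM was reached by 3, and their median CV was 28.2%, beside 39.7% for the 618 lncRNAs of that level.

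CAPRIN1, which lies on chromosome 2, 26830987 to 26875425, and which encodes an RNA-binding protein of stress granules, overlapped TCONS_00101316 (chromosome 2, 26861138 to 26863697, minus strand) and TCONS_00101317 (26859609 to 26860399, minus strand). TCONS_00101316 measured 0.481 and 0.523 at D0, 0.854 and 1.11 at D7, 0.7104 and 0.629 at D28, 0.996 and 1.06 at D180, and 0.879 and 0.733 at Y2 scaled FPKM. TCONS_00101317 measured 0.388 and 0.541 at D0, 1.03 and 0.729 at D7, 0.506 and 0.766 at D28, 1.01 and 0.794 at D180, and 0.726 and 0.827 at Y2. Both had their lowest age mean at D0. In HECA, TCONS_00010745 (chromosome 1, 25337114 to 25337851, minus strand) measured 1.05 and 0.403 at D0, 0.803 and 0.441 at D7, 0.605 and 0.709 at D28, 1.22 and 0.879 at D180, and 0.946 and 0.411 at Y2, with overlapping ages. The strand of the genes was not given in the table used, so sense and antisense could not be told apart.

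Between the late and the suckling period, limma on scaled FPKM called 0 of the 15 overlapping lncRNAs at an adjusted p of at most 0.05, where 2.84% of all lncRNAs were called, and 4 of the 15 had an unadjusted p under 0.05, as did 21.9% of all. Without pig 2 at D7 the count was 1. The lowest adjusted p, 0.0583, belonged to TCONS_00159846 in RIPOR2, which was named after its values were seen. Its log2 difference was -0.45 ± 0.113 (SE), from means of 1.21 ± 0.230 at D0, 0.913 ± 0.299 at D7 and 1.15 ± 0.195 at D28 to 0.563 ± 0.182 at D180 and 0.482 ± 0.0789 at Y2 (SD, n = 2 pigs). The lowest suckling library, pig 2 at D7 with 0.702, was close to the highest late one, pig 1 at D180 with 0.691. On deposited FPKM, limma called 7 of the 15 as higher in the late period, where 57.3% of all lncRNAs were called.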

How the data were processed

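Whole-blood RNA of 10 pigs was isolated with TRIzol, ribosomal RNA was removed, and strand-specific libraries were sequenced. The submitters' processing notes name CASAVA 1.8.2, HISAT2 2.0.4, StringTie 1.3.3 and Cufflinks 2.2.1, and the build is Sscrofa11.1. The authors deposited FPKM for 12354 mRNAs and 5946 lncRNAs, kept above 0.5 and 0.1 FPKM in at least 1 library per the study's methods. FPKM is relative to the mapped reads of its own library. No column of other samples was present (0). Whether the quantification used strand is not given in the sources used here. The reads behind a value are unknown, so no counting interval was made, and 2 pigs per age limit the precision. Nothing in the labels gives a sequencing batch.

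Age and pig number came from the sample titles. Each column was scaled by a median-of-ratios factor, lncRNAs by the factor of the mRNAs. The 100 mRNAs and the gene lists were chosen with earlier results of these data known, and the role groups were assigned after the members were known. The genes named were the 10 of lowest CV, the 5 of highest and of lowest mean, the 3 on each side of the limit, up to 4 per list, the 5 with the largest ratio of age means, the reference genes, the 3 overlapping lncRNAs of highest mean, and at most 2 mRNAs without a symbol. The other members were named to account for all 100, with values chosen after they were seen. Symbols came from a table of Ensembl identifiers, which named 9735 of the mRNAs, and positions from RefSeq on Sscrofa11.1 by unique symbol. Protein length and promoter content were planned but not analysed here, and the span of the gene was given in their place.

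Differences on the scale log2(FPKM + 1) were fitted in R 4.3.3 by limma 3.58.1. The fits used a mean-variance trend, and p-values were adjusted by Benjamini-Hochberg over all rows of a table. The fold changes are on this log2 scale, and the pseudocount of 1 understates changes of low RNAs. The period fit had 2 groups and treats ages of a period as replicates. Steps between adjacent ages were taken from 1 fit of 5 ages, with the study's limits of 0.05 and 1.5. Fits and the choice of members were run on simulated data only as a check of the procedure. In that choice the simulated steady mRNAs stood well apart from the rest, unlike the continuous spread at the real limit. Other steps used Python 3.11.15, numpy 2.4.6, pandas 2.3.3 and matplotlib 3.10.9.

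The alternatives were no scaling, removal of the 10 most abundant mRNAs with rescaling, upper-quartile scaling, factors from mRNAs of at least 1 FPKM, other level ranges, other measures of spread, a pseudocount of 0.1, no trend, rows that reach 1 FPKM in 2 or more libraries, 5 ages in the period fit, other fold limits, the pig number as a replicate block, lncRNAs within 10 kb, and each pig left out in turn. Leaving out both pigs of an age was added after seeing the data. Some genes are not reported here.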

Additional observations from a re-analysis of the deposited data

Results flagged for a closer look

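CNOT1 in pig 1 at D0 stood apart from the other 5 suckling libraries, with a scaled FPKM of 12.7 where the nearest was 12.1. The gap took 0.753 of the range of the 6 libraries, above Dixon's 95% critical value for 6 samples, which served only as a flag. This was the 1 flag among 24 such ratios, on the periods of 6 and 4 libraries because 2 pigs per age are too few. The mRNAs were chosen for low spread on these same values, and a period pools ages. Dixon's critical value therefore gives no error rate here. The difference is 0.678 scaled FPKM in an mRNA whose CV was 3.99% over all 10 libraries, and its cause was not tested.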

How the results depend on the processing

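The choice of the 100 rests on the scaling and on the level range. Of the 100, 0 were chosen on deposited FPKM (their median CV was then 74.4%), and 0 after the 10 most abundant mRNAs were removed and the rest rescaled (41.4%). Upper-quartile scaling kept 56 (10.9%), factors from mRNAs of at least 1 FPKM 97 (9.10%), a scaled mean of 1 to 5000 kept 21, no limit on the mean 21 and a mean of 50 to 5000 kept 4, the number of the 100 that reach a mean of 50. Leaving out both pigs of an age kept 49 without D0, 64 without D7, 67 without D28, 54 without D180 and 80 without Y2, and 17 stayed in every time. Leaving out each library in turn kept 81 to 91, with a median CV of 8.36% to 9.30%, and 59 of the 100 stayed in every time. The level ranges change which mRNAs could be chosen, and the cause of the other shifts was not tested. In limma between the periods on scaled FPKM, the count of 1 became 2 without the trend, 0 with a fold limit, 22 with 5 ages in the fit (11 higher, 11 lower, where 51.1% of all mRNAs were called) and 100 after removal of the 10 mRNAs (77.1% of all). That removal also moved the median log2 difference of all mRNAs to 0.60 and that of the 100 to 0.99, and turned 837 higher and 1378 lower calls into 8964 and 563. Without any 1 library it was 0 to 0. By adjusted p alone, the steps gave 17, 19, 14 and 1 of the 100 on scaled FPKM (37.9%, 41.1%, 32.4% and 11.4% of all mRNAs), and 34, 100, 100 and 100 on deposited FPKM (27.4%, 71.2%, 93.9% and 87.1%). D180 against D28 on deposited FPKM gave 42 to 59 without 1 library, and the other steps 0 to 0. With a pseudocount of 0.1, D180 against D28 on deposited FPKM gave 63, against 48.6% of all mRNAs in place of 18.7%. For the overlapping lncRNAs on scaled FPKM, the count of 0 became 1 with a pseudocount of 0.1 (4.46% of all lncRNAs), 1 without the trend (3.97%), 1 of the 6 left by the filter on low FPKM (15.3%), 3 with 5 ages (1189 of all 5946), 7 after removal of the 10 mRNAs (43.5%), 2 of 33 within 10 kb (2.84%), and 0 to 1 without 1 library (1 without pig 2 at D7). On deposited FPKM it became 4 with a fold limit (9.35%), 21 of 33 within 10 kb (57.3%), and 7 to 8 without 1 library. Pig numbers do not pair the samples, since same-numbered pigs are different animals and the 10 correlations of their deviations between ages ran from -0.094 to 0.059. With the pig number as a replicate block, the count between periods on scaled FPKM was 0 of the 100, and the block changed no other count. Of 252 alternative values, 209 kept near the main value and 43 moved. A count was kept if it equalled the main count or was within 1.5 times of it. A median CV was kept if it differed from the main value by less than the SD of the CVs of the 100. Direction was not part of this rule.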
